A study of Cavia porcellus with 30 samples.

Results

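At 24 h, 71 transcripts of guinea pig kidney tubule cells had means past a set distance from vehicle at both doses of mercuric chloride. At 12 h the same transcripts lay close to vehicle. They were chosen by their own measured values: the mean TPM of each of the 6 groups was taken, and D was defined as log2((treated mean + 0.5)/(vehicle mean of the same time + 0.5)). TPM, the usual scaled measure of transcript abundance in RNA-seq, is corrected for transcript length. A transcript was included where its largest group mean was at least 1 TPM, D at 12 h lay between -0.2 and 0.2 at both doses, and D at 24 h was at least 0.5 at both doses or at most -0.5 at both doses. Of the 25824 transcripts measured, 15909 reached 1 TPM in some group, 5606 of these lay within the 12 h limits, and 71 of the latter (1.267%) passed the 24 h threshold. In all, 59 transcripts were higher at 24 h (late risers) and 12 were lower (late fallers). Their D values are therefore a description and support nothing by themselves, and not all members passed a test at both doses.

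The cells were epithelial cells of the renal proximal tubule, isolated from Hartley guinea pigs aged 6 to 8 weeks first grown to a monolayer and then, after replating, kept in Hepatocyte Maintenance Medium for the last 48 h before exposure. They then received vehicle or mercuric chloride at 30 µM (low dose) or 40 µM (high dose), and poly-A-selected RNA was sequenced after 12 h or 24 h. Each of the 6 groups of dose and time had 5 libraries, 30 in all, with totals between 21651452 and 35021210 estimated counts. The labels do not say whether the 5 libraries of a group came from separate cultures or animals, so the p-values below measure only the spread between these libraries, which may be technical. Cells isolated from an animal and grown in a dish lack the blood flow, filtrate and neighbouring cells of the kidney.

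Proximal tubule cells line the first segment of the nephron, where they take back most of the filtered glucose, amino acids, phosphate and protein. They are also the main site at which inorganic mercury collects in the kidney. Inside the cell, mercuric ions bind strongly to thiol groups, including those of glutathione and of many proteins, and the cell's responses include induction of metal-binding and antioxidant genes. The tables name transcripts by Ensembl identifier only, and 0 of the 25824 identifiers matched the guinea pig gene table at hand. Gene names, functions, sequences and positions are therefore not given here, and neither the cell type nor any pathway could be checked against marker genes. Transcripts are named below by identifier for 2 risers and 2 fallers picked by a rule, and otherwise by their length in bases. RNA from the whole culture was measured, so fewer cells of a type and less RNA per cell cannot be told apart.

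The late pattern was a minor share of what differed at 24 h. At that time 501 transcripts were at least 0.5 above vehicle on the D scale at both doses, of which 59 (11.78%) lay within the 12 h limits and 195 (38.92%) were already at least 0.5 above vehicle at both doses at 12 h. On the falling side 360 transcripts passed the 24 h threshold, of which 12 (3.333%) lay within the 12 h limits and 174 (48.33%) had already passed the same threshold at 12 h. These counts follow from the thresholds chosen, and the transcripts in neither class had other values at 12 h.

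The late risers were low-abundance transcripts that were about 2-fold higher with mercury at 24 h. Their median TPM was 2.432 with vehicle, 2.554 at 30 µM and 2.477 at 40 µM at 12 h. At 24 h the median was 2.117 with vehicle, 4.671 at 30 µM and 5.269 at 40 µM. The median fold of treated over vehicle mean at 24 h was 2.058 at 30 µM and 2.274 at 40 µM. D at 24 h had a median of 0.84 at 30 µM, with a range of 0.52 to 1.65, and of 0.99 at 40 µM, with a range of 0.50 to 2.04. Of the 59 risers, 16 reached a D of 1 at both doses. Over all 15909 transcripts that reached 1 TPM, the median D at 24 h was -0.03 at 30 µM and 0 at 40 µM. At 12 h the median D of the risers was 0.05 at 30 µM and -0.01 at 40 µM.

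The late fallers were fewer, and likewise of low abundance, with a median largest group mean of 3.648 TPM beside 5.436 TPM in the risers and 13.71 TPM over all 15909 transcripts. Their median TPM at 24 h was 3.648 with vehicle, 1.757 at 30 µM and 1.648 at 40 µM. D at 24 h had a median of -0.75 at both doses, with a range of -1.50 to -0.52 at 30 µM and of -1.98 to -0.54 at 40 µM. At 12 h their median D was -0.12 and -0.09. In 2 of the 12 fallers D was below -1 at both doses.

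**Figure D1:**
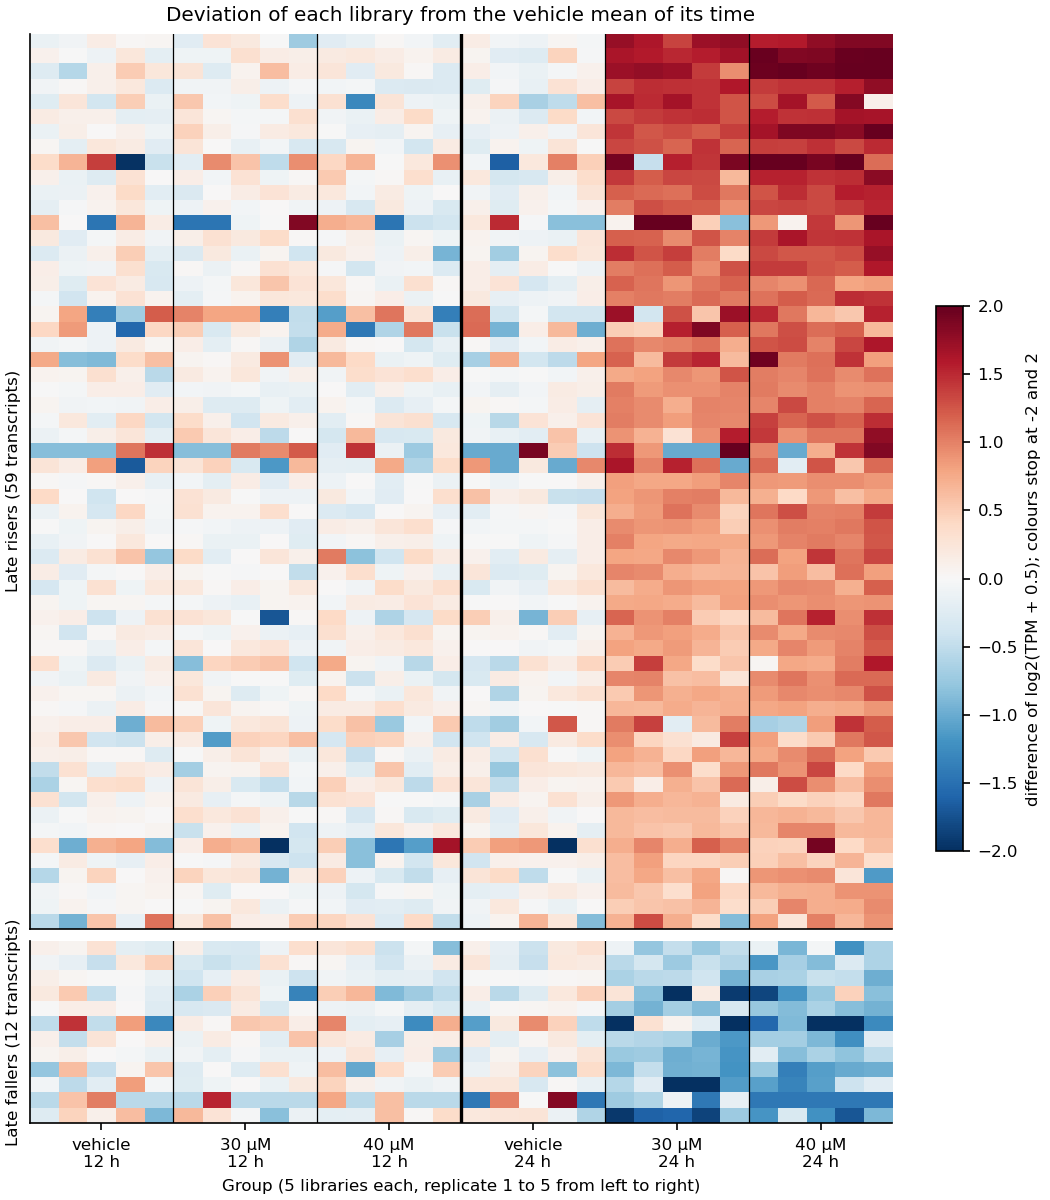
Difference of log2(TPM + 0.5) from the vehicle mean of the same time for each of the 71 transcripts (lines) in each of the 30 libraries (columns), red above and blue below vehicle; colours stop at -2 and 2. Within each direction transcripts are ordered by D at 30 µM at 24 h, and in the riser panel the median of a treated 24 h library lies between 0.82 and 1.22 while no 12 h library exceeds 0.12.

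In single libraries the shift at 24 h was present in every treated library when taken over all risers. The median deviation of the 59 risers from the vehicle mean, in log2(TPM + 0.5), was 0.97, 0.88, 0.90, 0.86 and 0.82 in the 5 low-dose libraries at 24 h. It was 0.98, 0.98, 1.04, 1.01 and 1.22 in the 5 high-dose libraries, of which the lowest, 0.98, was close to the highest low-dose library, 0.97. The members were chosen on the means of these same libraries, so no order of the doses is read from the medians. The 5 vehicle libraries at 24 h lay between -0.10 and 0.11, and all 15 libraries at 12 h lay between -0.07 and 0.12. For the 12 fallers the medians were -0.66, -0.60, -0.70, -0.90 and -1.03 in the low-dose libraries at 24 h. They were -0.92, -0.88, -0.88, -0.92 and -0.87 in the high-dose libraries, within the range of the low-dose libraries. At 12 h the libraries of the fallers spread more widely, from -0.26 to 0.25.

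Single transcripts differed in how far treated and vehicle libraries stood apart. In 40 of the 59 risers every library of both doses had a TPM above every vehicle library at 24 h, where 4.43% of all 15909 transcripts showed this. In 3 of the 12 fallers every treated library lay below every vehicle library at 24 h, beside 6.36% of all transcripts. No riser and no faller was separated in this way at 12 h, where the rule itself held the means close to vehicle. The share of all transcripts separated at 12 h is not given here. Because the rule used the group means behind these counts, nothing is read from them.

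Among the 39 risers eligible to be printed by identifier, those with at least 50 estimated counts on average and no overlap at 24 h, the first by size was ENSCPOT00000015523.3, a transcript of 3349 bases. Its TPM at 24 h was 1.90, 1.57, 1.50, 1.71 and 1.61 with vehicle, and 6.71, 6.14, 5.03, 6.55 and 6.83 at 30 µM. At the high dose it was 5.87, 5.95, 6.91, 7.28 and 7.32. All 10 treated libraries lay above the 5 vehicle libraries, with a D of 1.65 at 30 µM and 1.73 at 40 µM, and the libraries of both doses overlapped each other. At 12 h its TPM ran from 1.93 to 2.45 with vehicle, from 1.13 to 2.71 at 30 µM and from 1.78 to 2.21 at 40 µM, so that all 3 groups overlapped. No difference between the doses passed the threshold at 24 h, where the log2 fold change of the high over the low dose was 0.06 (SE 0.10, edgeR adjusted p = 0.867).

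The second riser, ENSCPOT00000005460.3 of 1087 bases, had a TPM at 24 h of 7.01, 5.67, 5.51, 9.27 and 6.57 with vehicle. It was 21.9, 21.0, 19.9, 20.9 and 22.6 at 30 µM and 27.9, 25.5, 25.6, 27.8 and 28.9 at 40 µM. The 3 groups did not overlap, and D was 1.58 and 1.92. At 12 h the groups overlapped, with 6.60 to 8.95 TPM with vehicle, 7.09 to 9.63 at 30 µM and 7.99 to 8.89 at 40 µM. The difference between the doses at 24 h, whose libraries also entered the rule, was 0.33 on the log2 scale (SE 0.07, edgeR adjusted p = 0.0354). It no longer passed the threshold when any of low-dose replicates 1, 2, 3 or 4 at 24 h was left out (0.30 to 0.32, edgeR adjusted p from 0.102 to 0.121), nor with a block on the position of the number in the sample titles (0.30, edgeR adjusted p = 0.554). The block leaves less to estimate the spread from, and a position held by a single library adds nothing to the comparison.

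**Figure D2:**
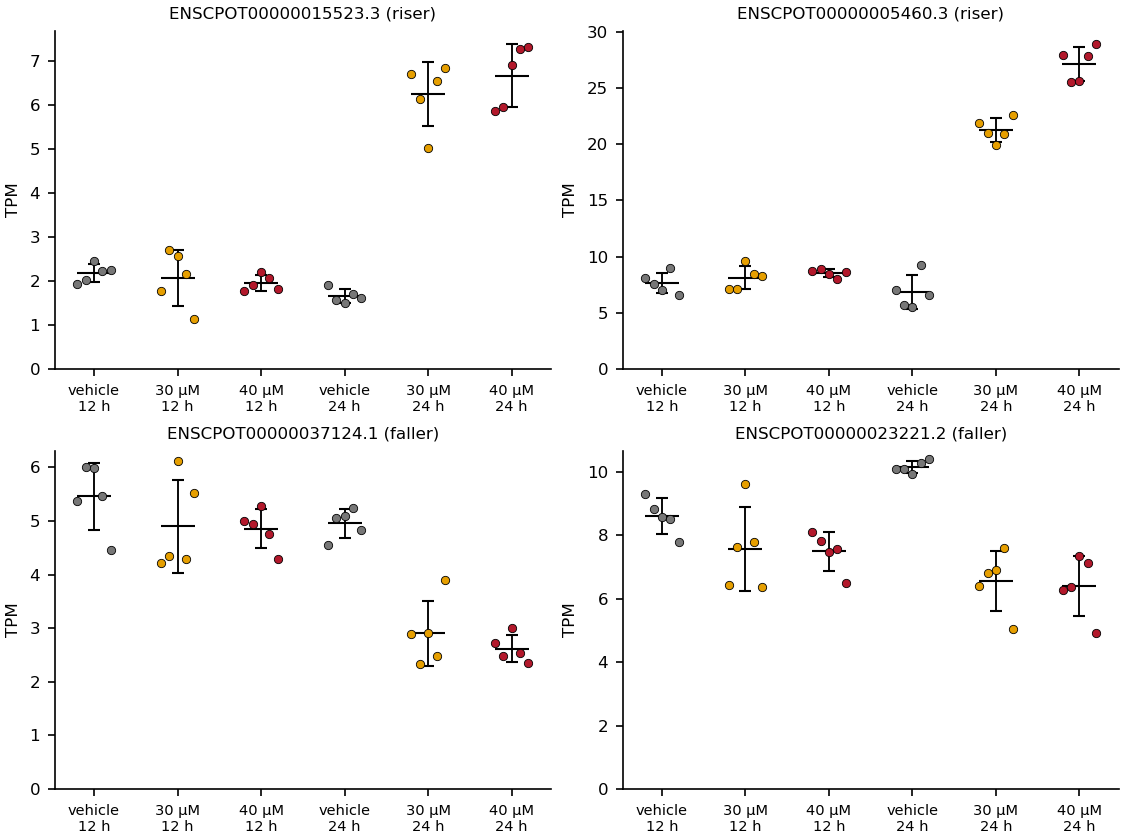
TPM of the 4 transcripts named by identifier in each library of the 6 groups; points are libraries, the horizontal mark is the group mean and the bars are ± SD (n = 5). In ENSCPOT00000005460.3 the 24 h vehicle libraries lie between 5.51 and 9.27 TPM, those of the low dose between 19.9 and 22.6 and those of the high dose between 25.5 and 28.9.

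Other risers, picked here after their values were seen, show the range of the pattern. The riser of 1794 bases had the largest D at 40 µM, 2.04, with 1.53 at 30 µM. Its TPM at 24 h was 1.46, 1.23, 1.13, 1.24 and 1.41 with vehicle, 5.34, 5.55, 5.35, 4.19 and 2.92 at 30 µM, and 6.44, 6.69, 6.35, 7.05 and 7.84 at 40 µM. No group overlapped another, with replicate 5 the lowest of the low-dose libraries. The most abundant riser, of 1166 bases, was at 33.3, 30.7, 32.4, 32.0 and 32.9 TPM with vehicle at 24 h and at 51.4, 50.6, 54.5, 51.7 and 53.9 TPM at 30 µM. At the high dose it reached 55.4, 56.5, 53.6, 55.1 and 60.1 TPM, overlapping the low dose. Its D at 12 h at 40 µM, 0.19, was close to the upper limit.

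The riser with the most reads, of 4932 bases, had a mean of 1934 estimated counts. With vehicle at 24 h it was at 16.1, 16.2, 16.3, 16.7 and 18.5 TPM, and at 30 µM at 32.9, 31.2, 31.8, 30.2 and 23.7 TPM. At the high dose it was at 32.1, 34.5, 34.2, 35.5 and 40.5 TPM. Here too replicate 5 was the lowest low-dose library, and replicate 5 the highest high-dose library. The longest riser, of 7979 bases, had 1.95, 0.846, 2.20, 2.18 and 2.11 TPM with vehicle at 24 h. Treated libraries of this transcript ran from 2.40 to 3.78 TPM at 30 µM and from 2.50 to 5.25 TPM at 40 µM, above all vehicle libraries, yet the vehicle mean itself had been 3.121 TPM at 12 h.

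Among the fallers, ENSCPOT00000037124.1, of 4439 bases, was the larger of the 2 eligible to be printed. Its TPM at 24 h was 4.55, 5.06, 5.09, 5.25 and 4.83 with vehicle, 2.89, 2.34, 2.91, 2.49 and 3.89 at 30 µM, and 2.73, 2.48, 3.00, 2.54 and 2.35 at 40 µM. Every treated library lay below every vehicle library, low-dose replicate 5 the closest to them, with D of -0.68 and -0.81. At 12 h its groups overlapped, with 4.46 to 6.01 TPM with vehicle, 4.22 to 6.12 at 30 µM and 4.30 to 5.28 at 40 µM. Between the doses no difference passed the threshold at 24 h (log2 fold change of high over low dose -0.18, SE 0.15, edgeR adjusted p = 0.704).

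The other, ENSCPOT00000023221.2, of 1836 bases, was the most abundant faller. At 24 h it was at 10.1, 10.1, 9.93, 10.3 and 10.4 TPM with vehicle, at 6.39, 6.82, 6.92, 7.60 and 5.06 TPM at 30 µM, and at 6.28, 6.37, 7.35, 7.12 and 4.92 TPM at 40 µM. The treated libraries of both doses overlapped each other and lay below all vehicle libraries, with D of -0.59 and -0.63. At 12 h its vehicle libraries ran from 7.79 to 9.32 TPM, all below the vehicle libraries of 24 h, and the vehicle mean was 8.612 TPM at 12 h and 10.156 TPM at 24 h. The treated libraries at 12 h ran from 6.36 to 9.64 TPM at 30 µM and from 6.49 to 8.12 TPM at 40 µM, overlapping vehicle. From 12 h to 24 h the log2 fold change was 0.30 with vehicle (SE 0.07), -0.20 at 30 µM (SE 0.12) and -0.21 at 40 µM (SE 0.11), and of the 3 it was the vehicle change that was called. The difference between the doses at 24 h was -0.05 (SE 0.13, edgeR adjusted p = 0.921).

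The next 3 fallers were picked after their values were seen. The third without overlap at 24 h, of 1554 bases, ran from 1.38 to 1.98 TPM with vehicle, from 0.473 to 0.982 at 30 µM and from 0.424 to 1.36 at 40 µM, the last value lying just under the lowest vehicle library. The faller with the lowest D at 30 µM, -1.50, was 1548 bases long, with 4.76, 4.87, 4.91, 3.65 and 2.48 TPM with vehicle at 24 h and 0.682, 0.979, 1.01, 0.758 and 2.24 TPM at 30 µM. At the high dose it was at 1.49, 3.15, 1.45, 0.877 and 1.94 TPM, where replicate 2 overlapped vehicle. The faller with the lowest D at 40 µM, -1.98, was 975 bases long and rested on very few reads: its estimated counts at 24 h were 0, 24.8, 14.3, 56.7 and 0 with vehicle, 5.3, 5.4, 9.5, 0 and 9.4 at 30 µM, and 0 in all 5 high-dose libraries. The range of its vehicle libraries covered every treated library.

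The place of a transcript among the members was sensitive to the limits. At 24 h the risers nearest to the threshold had a smaller D of 0.501, 0.509 and 0.517, and the nearest transcripts outside had 0.496, 0.494 and 0.484. Within 0.1 of this threshold were 11 risers inside and 22 transcripts outside. At 12 h the larger |D| of the last risers inside was 0.192, 0.193 and 0.198, and of the first outside 0.218, 0.221 and 0.221, with 46 risers inside and 36 transcripts outside within 0.1 of the limit. For the fallers the nearest D at 24 h was -0.520, -0.552 and -0.591 inside and -0.500, -0.494 and -0.482 outside, the first of these lying just short of the threshold. The lowest largest group mean among the risers was 1.088 TPM, and the nearest transcript below the 1 TPM minimum had 0.990 TPM. For the fallers these values were 1.467 and 0.859 TPM.

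**Figure D3:**
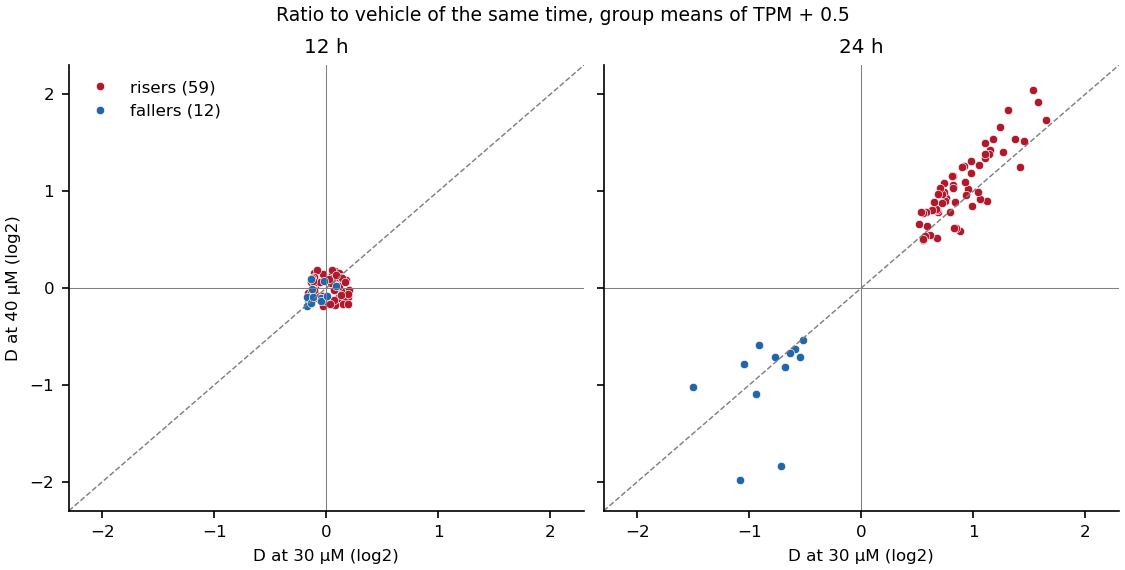
D at 30 µM (horizontal) against D at 40 µM (vertical) for the 59 risers (red) and 12 fallers (blue) at 12 h and 24 h, on log2 scales; the dashed line marks equal values. At 12 h all points lie between -0.2 and 0.2 by the rule, and at 24 h 45 of the 59 risers lie above the line.

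The ratios were next set apart into what vehicle and treated cells did between 12 h and 24 h. In most risers the larger change was in the treated cells: the median change from 12 h to 24 h, in log2 of group means + 0.5 TPM, was 0.70 at 30 µM and 0.84 at 40 µM, against -0.18 with vehicle. Over all 15909 transcripts these medians were -0.01, -0.01 and -0.06. In 46 of the 59 risers the treated change was larger in size than the vehicle change at both doses. In 8 risers it was the vehicle change that was larger at both doses, and in 52 of the 59 the vehicle mean was lower at 24 h than at 12 h. For the fallers the median change was 0.21 with vehicle, -0.50 at 30 µM and -0.49 at 40 µM. The treated change was the larger at both doses in 8 of the 12 fallers, and the vehicle mean was higher at 24 h in 11 of the 12. As the rule divides by the vehicle mean of each time, vehicle movement in the opposite direction belongs to what it selects.

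Among the risers the largest vehicle change was in the transcript of 2379 bases. Its vehicle mean was 1.062 ± 1.022 TPM at 12 h and 0.205 ± 0.390 TPM at 24 h (SD, n = 5), while the low-dose mean was 0.945 ± 0.712 TPM and the high-dose mean 0.895 ± 0.437 TPM at 24 h. Estimated counts of the vehicle libraries at 24 h were 31.0, 0, 6.2, 0 and 0, and those at 12 h were 40.5, 64.0, 0, 10.0 and 86.1. In 5 of the 6 groups some libraries had reads and others had an estimate that rounds to 0, and its groups overlapped at both times.

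**Figure D4:**
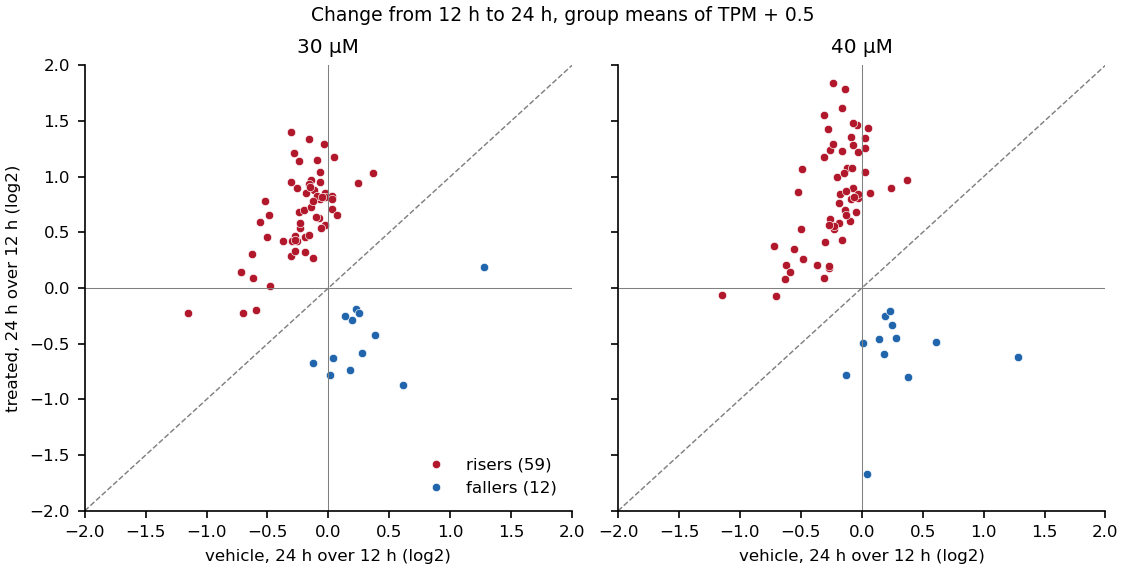
Change from 12 h to 24 h in vehicle cells (horizontal) and in treated cells (vertical), low dose left and high dose right, in log2 of group means + 0.5 TPM; the dashed line marks equal change. Red points are the 59 risers, of which 52 lie left of zero, and blue points the 12 fallers, of which 11 lie right of zero.

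The edgeR quasi-likelihood test, with an adjusted p under 0.1 taken as a call, gave the following counts. At 24 h 46 of 56 risers tested at both doses were called higher at both, where 7.62% of all transcripts tested were, and 6 of 9 fallers were called lower at both, where the share was also 7.62%. At 12 h 7 of 54 risers and 0 of 9 fallers were called at 1 dose or both, where 56.9% of all transcripts were called. The low-dose effect was called more positive at 24 h than at 12 h in 32 of 58 risers (1.64% of all) and more negative in 5 of 12 fallers (2.09% of all). The high-dose effect was called more positive in 39 of 57 risers (15.8% of all) and more negative in 8 of 11 fallers (14.2% of all). All of these contrasts were used by the rule, so nothing is read from the counts.

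Along time, no riser of 54 and 1 faller of 11 was called between vehicle at 24 h and at 12 h, where 2.16% of all transcripts were called; 6 risers and 2 fallers had an unadjusted p under 0.05, as did 12.9% of all. The faller called, ENSCPOT00000023221.2, was higher at 24 h. In low-dose cells 39 of 57 risers were called higher at 24 h than at 12 h (4.31% of all) and 2 of 10 fallers lower (4.71% of all). In high-dose cells 43 of 57 risers were called higher (22.1% of all) and 4 of 9 fallers lower (20.8% of all). These groups also enter the rule.

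The 12 h limits do not mean that no difference was present at 12 h. Of the 7 risers called there, 3 were called higher at 30 µM (2923, 2459 and 4908 bases, with log2 fold changes of 0.28, 0.30 and 0.34) and 4 higher at 40 µM (1166, 4932, 2841 and 4248 bases, with 0.24, 0.22, 0.20 and 0.26). The 2 scales are centred differently, since the fits use TMM scaling while D uses TPM as deposited, and over all 15909 transcripts the median D at 12 h was -0.09 at 30 µM and -0.05 at 40 µM. Between the doses at 12 h 6 of 56 risers and 0 of 9 fallers were called, where 33.5% of all transcripts were called; 4 of the 6 were lower and 2 higher at 40 µM.

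The high and the low dose were not compared with each other by the rule, at 24 h or at 12 h, but the members were selected on the means of the same libraries, so the counts for 24 h below are a description and nothing is read from them. The risers were higher at 40 µM in 44 of the 57 tested, with a median log2 fold change of 0.18, beside 0.01 over all transcripts tested. A call was made for 3 of the 57, all higher at 40 µM, where 1.7% of all transcripts were called higher, and 0 were called lower, where 1.88% of all were. An unadjusted p under 0.05 was found in 22 of the 57 risers, against 13.78% of all transcripts. Of the 9 fallers tested 4 were higher at 40 µM, with a median of -0.04; none was called, and none had an unadjusted p under 0.05. DESeq2 called 5 members in place of 3, and with the position block no call remained. Leaving out low-dose replicate 5 at 24 h gave 5 calls.

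Beside ENSCPOT00000005460.3, the risers called were those of 2459 and 4908 bases. The former had 3.73, 3.91, 4.58, 4.01 and 5.13 TPM with vehicle at 24 h, 12.3, 10.8, 11.3, 10.4 and 11.9 TPM at 30 µM and 14.5, 16.8, 16.9, 16.1 and 18.7 TPM at 40 µM. Its 3 groups did not overlap, and the high dose exceeded the low by 0.53 on the log2 scale (SE 0.08, edgeR adjusted p = 0.00914). The riser of 4908 bases had 1.53, 1.35, 1.32, 1.27 and 1.80 TPM with vehicle, 3.97, 3.89, 3.26, 4.17 and 3.36 TPM at 30 µM and 4.64, 5.54, 4.72, 4.77 and 5.51 TPM at 40 µM. It too had 3 groups without overlap, with a difference of 0.41 (SE 0.09, edgeR adjusted p = 0.0385). Both transcripts were called higher at 30 µM at 12 h, and there the high dose lay below the low dose, by -0.34 and -0.29 on the log2 scale. The riser of 1794 bases had a dose difference of similar size at 24 h, 0.54, that did not pass (SE 0.15, edgeR adjusted p = 0.118).

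**Figure D5:**
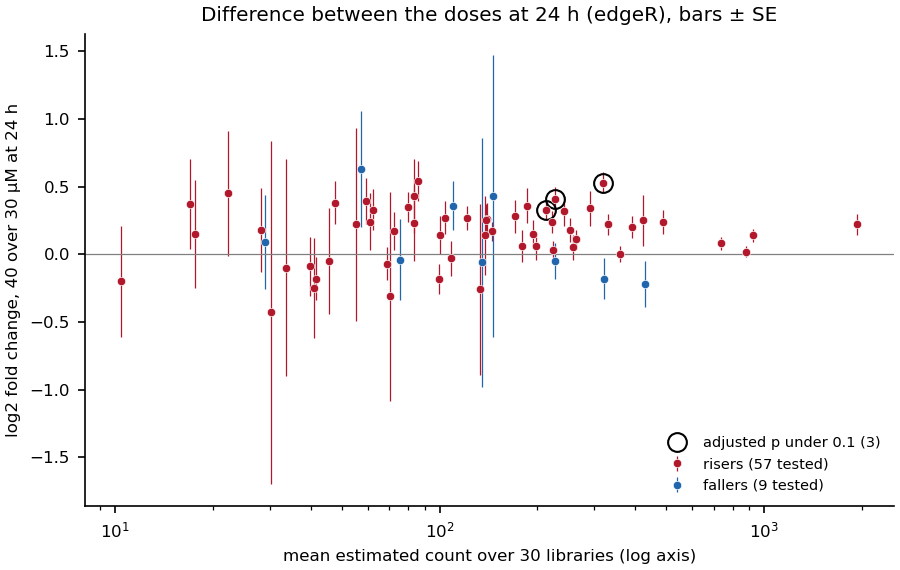
Log2 fold change of the high over the low dose at 24 h with its standard error (edgeR), against the mean estimated count over the 30 libraries on a log axis, for the 57 risers (red) and 9 fallers (blue) tested. The 3 circled risers had an adjusted p under 0.1, and 44 of the 57 risers lie above zero.

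Transcripts already raised at 12 h gave other values in the same comparison of doses. Of the 195 raised at both doses and both times, 176 were tested, and 55 were higher at 40 µM than at 30 µM at 24 h. Their median log2 fold change was -0.10, with 12 called higher (1.7% of all) and 37 called lower (1.88% of all). Of the 174 lowered at both times, 157 were tested, 84 were higher at 40 µM and the median was 0.01. Here 10 were called higher and 11 lower, beside the same shares of all. The mean estimated count had a median of 474.9 in the raised and 176.5 in the lowered transcripts, beside 121.7 in the late risers. These groups were picked by thresholds on the same libraries, and the difference between them and the late risers was not tested.

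At 24 h low-dose replicate 5 was the lowest of its group in 26 of the 59 risers and the highest in 11, and among the fallers it was the lowest in 4 and the highest in 2. This was not particular to the members. In the 195 transcripts raised at both times it was the lowest in 82 and the highest in 49. In the 174 lowered at both times it was the lowest in 74 and the highest in 27. With the 4 other low-dose libraries 56 of the 59 risers and 10 of the 12 fallers kept a low-dose D past the 24 h threshold. On these 4 libraries the high dose exceeded the low dose in 46 of the 59 risers, with a median of 0.18, and in 3 of the 12 fallers, with a median of -0.06.

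The depth behind the members was modest. The mean estimated count over the 30 libraries had a median of 121.7 in the risers (4.689 to 1934) and of 92.54 in the fallers (6.102 to 428), beside 471.1 over all 15909 transcripts. Fewer than 50 counts on average were found for 14 risers (23.73%) and 4 fallers (33.33%), beside 11.88% of all. Of the 33 risers with at least 100 counts, 32 were called higher at both doses at 24 h, where 9.01% of all transcripts with that depth and at least 1 TPM were. Of the 21 with 20 to 100 counts 13 were (3.71% of all), and of the 5 with fewer than 20 counts 1 was (0.355% of all). For the fallers called lower the numbers were 4 of 6 (8.97% of all), 2 of 3 (3.8% of all) and 0 of 3 (0.828% of all) in the same order. With at least 50 counts, no overlap at 24 h was seen in 39 of the 45 risers (4.87% of all) and in 2 of the 8 fallers (6.96% of all). The rule used these contrasts, so nothing is read from the counts. Within a 24 h group the SD of log2(TPM + 0.5) had a median of 0.18 in the risers and 0.34 in the fallers, beside 0.13 over all, and 9 risers (15.25%) and 3 fallers (25%) had an estimated count of exactly 0 in some 24 h library, beside 5.814% of all. All 11 fits tested 54 risers and 9 fallers, and 1 riser was tested in none.

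The members were also described by properties that the rule did not use. Transcript length had a median of 2086 bases in the risers (273 to 7979) and of 1730 bases in the fallers (360 to 7364), beside 2418 over all 15909 transcripts. Estimated counts that are not whole (here, over 1e-06 from a whole number in some library) arise where reads fit several transcripts and are shared among them. Such counts occurred in 34 of the 59 risers (57.63%) and in 10 of the 12 fallers (83.33%), beside 61.42% of all, and in all 4 transcripts named by identifier. For these transcripts the share given to the transcript itself is uncertain. In the 25 risers with whole counts throughout, 23 were without overlap at 24 h, beside 5.64% of all such transcripts, and in the 2 such fallers 1 was, beside 8.91%; this overlap too rests on values the rule used. Whether shared reads take part in the values of the other transcripts was not tested.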

How the data were processed

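The authors assigned reads to the guinea pig Ensembl transcriptome with Kallisto (version 0.42.4 in the submitters' processing notes) and deposited 1 table per library, holding estimated counts, which are not normalised, the TPM, scaled to 1000000 per library, and the length of each transcript. Reads were assigned to transcript models, and the genome build behind these models is not stated here. The study's own tests are not used here. All per-library columns belong to labelled samples.

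Members were found from the deposited TPM as stated at the opening of the report; the members, the tests and the planned lists, which were not run, were chosen with earlier results of these data known. Estimated counts were rounded and tested with edgeR 4.0.16 (R 4.3.3) by quasi-likelihood, with TMM scaling, filterByExpr and only the groups compared in each of 11 fits; Benjamini-Hochberg adjustment ran over all transcripts tested, with a threshold of 0.1. The SE printed with an edgeR log2 fold change was its size divided by the square root of the F value of the test. The code was tested on simulated data. The alternatives were DESeq2 1.42.0, limma 3.58.1 on log2(TPM + 1) and log2(TPM + 0.1), other size factors, filters, TPM minimums, pseudocounts and limits, and each library left out in turn. Replicates were numbered in accession order and pair nothing. A further alternative blocked on the position of the number in the sample title within successive sixes, which the labels do not tie to a culture or animal. Transcripts printed by identifier were the 2 risers and 2 fallers with the largest smaller |D| at 24 h among members with at least 50 mean counts and no overlap at 24 h. Lists of gene names and cell type markers could not be run without names.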

Additional observations from a re-analysis of the deposited data

Results flagged for a closer look

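Within groups of 5 libraries, 42 sets of values were examined for a library far from the others, of which chance flags about 1 in 20, or 2.1; 2 were found. In the high dose at 24 h, replicate 5 had a median deviation of the risers of 1.22, where the other libraries lay between 0.98 and 1.04 (gap over range 0.75). In the high dose at 12 h, replicate 1 had a median deviation of the fallers of 0.25, where the others lay between -0.19 and -0.13 (gap over range 0.864). These are the same libraries that define the members, and the cause was not tested.

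The 24 h effect of ENSCPOT00000005460.3 differed between the doses by 0.33 on the log2 scale in the edgeR test of the difference itself. The call was lost with the position block (0.30, edgeR adjusted p = 0.554) and when any of low-dose replicates 1 to 4 at 24 h was left out (edgeR adjusted p from 0.102 to 0.121).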

How the results depend on the processing

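The number of risers (59) and of fallers (12) changed most with the limits. A minimum of 5 TPM left 34 risers and 2 fallers, and a minimum of 0.1 TPM gave 31 fallers. A 12 h limit of -0.1 to 0.1 left 13 and 3, and transcripts with whole estimates only 25 and 2. Group medians in place of means gave 48 risers and 18 fallers, of which 35 and 6 were members before; TPM divided by TMM factors gave 56 and 16, of which 50 and 11 were. With each library left out in turn there were 46 to 64 risers, at least 40 of them shared, and 9 to 18 fallers, at least 6 shared. Leaving out replicate 5 of the low dose at both times, chosen after seeing the data, gave 56 and 16.

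Over the other settings, calls at 24 h at both doses ranged from 38 to 48 risers and from 4 to 7 fallers, with 42 to 45 and 6 to 7 when a library was left out. Calls for a different effect at 24 h than at 12 h (37 members at the low, 47 at the high dose) ranged from 31 to 46 and from 40 to 53, with 32 to 38 and 41 to 47 when a library was left out. The 3 calls between the doses at 24 h became 5 with DESeq2, 0 with the position block and 2 to 5 with a library left out (5 without low-dose replicate 5 at 24 h).

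Between the doses at 24 h, ENSCPOT00000015523.3 changed sign without low-dose replicate 3 (-0.01; range over left-out libraries -0.01 to 0.11). ENSCPOT00000023221.2 changed sign with the position block (0.05) and without high-dose replicate 5 (0.03; range -0.12 to 0.03); none of these values passed. The labels give no replicate numbers that pair samples across groups, so the position block is the only blocked fit run, and whether the position marks a shared culture is not known. The block leaves less to estimate the spread from, so a lost call need not mean a smaller difference. It gave 38 risers and 4 fallers called at both doses at 24 h, and 34 and 47 calls for a different effect at the low and high dose.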
